A study of Aspergillus nidulans with 48 samples.

Results

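Conidia and mycelia of 1 strain of the filamentous fungus *Aspergillus nidulans* were compared without any stress treatment. The members are all libraries labelled as the untreated reference strain, 3 of conidia and 3 of mycelia, 6 of the 48 libraries of the series. This strain, THS30.3, is the control of the series, which also holds single and double deletion strains of *atfA* and *atfB*. All strains grew on Barratt's minimal medium agar plates at 37 °C. Conidia came from surface cultures 3 days old, and mycelia from surface cultures 20 to 33 h old. The mycelia were taken before conidiophores formed, according to the study's methods. Conidial replicates 1 and 2 belong to batch 1 and replicate 3 to batch 2, while all mycelial replicates belong to batch 3, by the labels. Cell type, culture age and batch therefore change together and cannot be told apart, so only differences of at least 8-fold were called. Conidial and mycelial libraries treated with menadione sodium bisulfite (MSB, a superoxide generator) and untreated libraries of the Δ*atfA* strain, 6 libraries each, serve below to look at the same comparison in other samples.

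Conidia are the asexual, airborne spores of the mold. They form in long chains on phialides, the flask-shaped cells at the head of the conidiophore, under the successive regulators BrlA, AbaA and WetA, and they carry a pigmented wall covered by hydrophobin rodlets. Dormant conidia store trehalose and protective proteins and do not grow, whereas mycelia extend at the hyphal tips, divide their nuclei and assimilate the nitrate of the medium. AtfA and AtfB, the bZIP-type transcription factors that the series is about, are known for their part in the stress tolerance of conidia.

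The conidial libraries held 9158006, 13847246 and 16220598 counts, and the mycelial libraries 24015282, 21595360 and 26573017 counts. Spearman correlations of RPKM (reads per gene, scaled to gene length and library total) were 0.981 to 0.989 among conidial and 0.991 to 0.994 among mycelial libraries, against 0.679 to 0.686 between the cell types. The 8 conidium markers summed to 39861, 38950 and 39776 RPKM in conidia and to 65.9, 68.4 and 61.9 RPKM in mycelia. The 9 markers of growing hyphae summed to 654, 413 and 389 RPKM in conidia and to 4488, 4268 and 4299 RPKM in mycelia. By the 8-fold rule given below, all 8 conidium markers were called higher in conidia and 3 of the 9 hyphal markers lower. Over all genes tested these shares were 16.1% and 5.09%. At least 2-fold lower were 8 of the 9 hyphal markers, beside 26.9% of all genes. The mycelial sum included *niiA*, with 925, 1016 and 1062 RPKM, and *niaD*, with 539, 620 and 645 RPKM. No marker was at 0 in all libraries of either cell type. The markers were chosen with earlier results of these data known, so they are no independent check of the labels. The 7 conidiophore and phialide markers summed to 548, 867 and 1090 RPKM in conidia and to 131, 222 and 118 RPKM in mycelia. Most of the mycelial sum came from *ivoB*, the 1 marker of this list that was lower in conidia. Without *ivoB* the other 6 summed to 548, 866 and 1089 RPKM in conidia and to 27.3, 30.1 and 24.2 RPKM in mycelia, and replicate 2 was the highest mycelial library either way. In bulk RNA, fewer cells of a type and less RNA per cell cannot be told apart.

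More genes were detected in conidia. At least 0.5 RPKM was reached by 9357, 9387 and 9320 of 10988 genes in conidia and by 8651, 8737 and 8679 genes in mycelia (two-sided exact permutation p = 0.1, the smallest that 3 against 3 libraries allow). The study calls its replicates biological, while neither it nor the labels say whether they were separate cultures, so p-values measure the spread between these samples. All conidial libraries stood above all mycelial ones although they were sequenced less deeply. At a higher bar of 5 RPKM the counts lay closer, 6800, 6934 and 6842 genes in conidia against 6728, 6798 and 6753 in mycelia. Of all genes, 8091 reached 0.5 RPKM in all 6 libraries, 742 in every conidial and no mycelial library, and 190 in every mycelial and no conidial library. Among those, 83 genes present in all conidia had no count in any mycelial library, and 18 genes present in all mycelia had no count in any conidial library. The 10 most abundant transcripts took 11.9, 10.1 and 10.7% of the counts in conidia and 6.76, 6.24 and 6.40% in mycelia, so the conidial transcriptome was dominated by fewer genes.

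For 9518 genes, those that reached 0.5 RPKM in 3 or more of the 6 libraries, counts were fitted in edgeR and tested by its quasi-likelihood method. To be called higher or lower in conidia, a gene had to differ at least 8-fold with a p below 0.05 after Benjamini-Hochberg adjustment. By this rule 1533 genes were higher in conidia (16.1%) and 484 were lower (5.09%). At least 2-fold changes were called in 3233 genes higher (34%) and 2563 lower (26.9%). No called gene overlapped between the cell types, while over all tested genes the conidial libraries lay wholly above the mycelial ones for 36.6% and wholly below for 50.1%. The split of directions depends on the scaling, since relative log expression (RLE) factors placed the median of all genes 0.42 higher (log2) than library totals alone. The called genes were 76% higher ones after RLE scaling. With library totals, 1317 genes were higher and 691 lower (65.6% higher), and limma on log2(RPKM + 0.1) gave 1221 and 664 (64.8%). With a pseudocount of 1 RPKM limma gave 769 and 428 (64.2%). Fold changes below are on the RLE scale, with RPKM of single libraries beside them, and the median of all tested genes was 0.05.

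**Figure D1:**
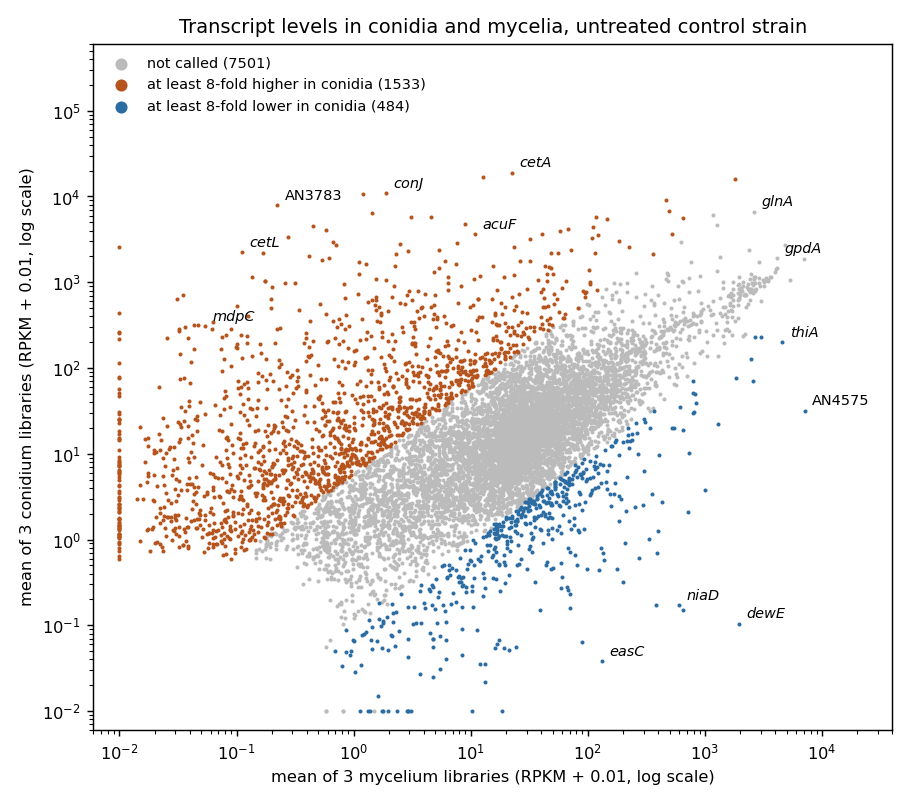
Mean RPKM of 9518 tested genes in 3 conidial libraries (vertical axis) against 3 mycelial libraries (horizontal axis), both on log scales after adding 0.01. Orange points are the 1533 genes called at least 8-fold higher in conidia, blue points the 484 called lower, and grey points the genes not called. The column of orange points at the left edge holds genes without a count in mycelia, with AN11624 as its highest point at a mean of 2587 RPKM in conidia.

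The differences were large and lay mostly on the conidial side. At least 64-fold changes were found for 575 genes higher and 67 lower, and at least 1024-fold changes for 129 higher and 7 lower. In conidia, the genes called higher took 44.4, 43.6 and 42.8% of all counts, and in mycelia 1.44, 1.47 and 1.34%. The genes called lower took 0.479, 0.420 and 0.446% of the conidial counts and 11.3, 10.8 and 11% of the mycelial counts. There were 80 genes with at least 100 RPKM in every conidial and under 1 RPKM in every mycelial library, and 12 genes with the opposite pattern. Among the 100 most abundant genes of each cell type 18 were shared. Of the conidial 100, 71 were called higher, and of the mycelial 100, 8 were called lower.

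The most abundant conidial transcript was *cetA*, which encodes a thaumatin-like protein of conidia, with 19761, 18060 and 18952 RPKM in conidia and 20.2, 26.8 and 21 RPKM in mycelia. Its log2 fold change was 10.13 (SE 0.21, adjusted p = 2.66e-10). The second was AN7102, a gene without a name, with 20090, 15297 and 15565 RPKM in conidia and 12.3, 14.9 and 11.3 RPKM in mycelia. Neither gene overlapped between the cell types, as was the case for 8249 of all 9518 genes tested. The 10 most abundant conidial genes also held *conJ*, *ccgA*, AN4299, AN3783, AN11938, AN11477, AN11787 and *glnA*, and 9 of these 10 were called higher. The exception was *glnA*, encoding glutamine synthetase, with 6329, 6205 and 7443 RPKM in conidia and 2483, 2821 and 2648 RPKM in mycelia (log2 fold change 1.75).

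Mycelia were led by AN4575, with 41.9, 29.5 and 24.2 RPKM in conidia and 7036, 7236 and 7044 RPKM in mycelia, a log2 fold change of −7.38 (SE 0.26, adjusted p = 2.76e-09). The thiazole biosynthesis gene *thiA* was the only other of the 10 most abundant mycelial genes that was called lower, with 201, 195 and 206 RPKM in conidia and 4590, 4677 and 4521 RPKM in mycelia. The remaining 8 were AN4218, AN4872, *oliC*, *gpdA*, AN8705, *rps21*, AN4064 and AN5715, and their log2 fold changes lay between −1.90 and −0.40. The housekeeping gene *gpdA*, encoding glyceraldehyde-3-phosphate dehydrogenase, had 1808, 1895 and 2034 RPKM in conidia and 4372, 4037 and 4066 RPKM in mycelia. Of the 10 leading conidial genes, *conJ*, AN3783, AN11938 and AN11477 had mycelial means under 2 RPKM, *cetA* and AN7102 had 22.7 and 12.8 RPKM, and the other 4 had 469 to 2651 RPKM.

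Spore genes. Of 12 genes described as spore genes or enriched in conidia, 10 were called higher (83.3%, beside 16.1% of all genes) and none lower. Their median log2 fold change was 9.82. Such a description, and a choice made with earlier results of these data known, favour a high share, so it is no independent result. The *conJ* gene, a homolog of *con-10* of *Neurospora crassa*, had 11250, 10858 and 10504 RPKM in conidia and 1.66, 2.46 and 1.5 RPKM in mycelia (log2 fold change 12.94, SE 0.25, adjusted p = 2.37e-10). The conidial transcript *cetL* had 1883, 2400 and 2403 RPKM in conidia and 0.0782, 0.0870 and 0.141 RPKM in mycelia, where 8 reads in all were counted. Every conidial library of both genes lay far above every mycelial one. The catalase gene *catA*, whose enzyme is stored in conidia, had 1555, 1766 and 1980 RPKM in conidia and 6.75, 5.73 and 5.60 RPKM in mycelia (log2 fold change 8.61, SE 0.19, adjusted p = 2.84e-10). In contrast, *ccgA*, a clock-controlled gene homolog, was abundant in mycelia too, with 19639, 13199 and 15178 RPKM in conidia and 1516, 2222 and 1656 RPKM in mycelia (log2 fold change 3.58). The 2 genes not called were *calA*, a paralog of *cetA* (log2 fold change −0.58, adjusted p = 0.0700), and *phiA*, a phialide gene (2.63).

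Regulators of conidiation. Of the 21 development regulators, 3 were called higher (*wetA*, *vosA* and *abaA*), 1 lower (*rosA*), and 17 were not called. These are 14.3% and 4.76% of the list, beside 16.1% and 5.09% of all genes tested. Their median log2 fold change of −0.53 lay below that of all genes. The *wetA* gene, required for the maturation of the conidial wall, had 128, 135 and 140 RPKM in conidia and 2.00, 1.80 and 1.26 RPKM in mycelia (log2 fold change 6.74, SE 0.19, adjusted p = 8.68e-10). The velvet regulator *vosA*, which acts in spore viability and trehalose storage, had 165, 198 and 206 RPKM in conidia and 30.9, 26.2 and 27 RPKM in mycelia. Its log2 fold change was 3.18 (SE 0.14) and stayed under the 8-fold limit with library totals (2.76). For the phialide regulator *abaA*, 8.87, 10.1 and 14.7 RPKM were found in conidia and 1.59, 1.58 and 2.05 RPKM in mycelia. The log2 fold change of *abaA* was 3.11 (SE 0.22), near the limit. Its call was lost without conidium replicate 3 (2.88), with a batch 2 term (2.87), with library totals (2.69) and with upper-quartile factors (2.98). It was also lost with limma at pseudocounts of 0.1 and 1 RPKM (2.60 and 2.14).

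The regulator at the head of this order, *brlA*, was not called. It had 53, 84 and 82.3 RPKM in conidia and 14.6, 18.9 and 11.8 RPKM in mycelia, a log2 fold change of 2.69 (SE 0.22, adjusted p = 9.84e-07). The libraries did not overlap, as for 8249 of all 9518 genes tested, but the difference was under 8-fold. The upstream activators *fluG*, *flbA*, *flbB*, *flbC*, *flbD* and *flbE* had log2 fold changes between −1.98 (*fluG*) and −0.00 (*flbA*), and none was called. All libraries of *flbA* were lower in conidia by RPKM (11.8, 10.95 and 13.6 against 15.4, 15.9 and 17.4 in mycelia), and RLE scaling brought this difference to about 0, TMM factors to −0.09 and upper-quartile factors to −0.14, against −0.42 with library totals. Of the regulators of the sexual cycle in this list, *rosA* was called, while *steA* (−1.17), *nsdC* (−0.41) and *nsdD* (−0.05, of unstable sign) were not. The zinc-cluster gene *rosA* had 1.07, 1.10 and 1.62 RPKM in conidia and 16.1, 17 and 17.2 RPKM in mycelia (log2 fold change −3.28, SE 0.18, adjusted p = 5.19e-08). Its paralog *nosA* (−2.94) and the velvet gene *velC* (−2.91) missed the 8-fold limit, which both passed with library totals (−3.36 and −3.32). Leaving out conidium replicate 1 brought *nosA* past it (−3.12), and leaving out replicate 3 did so for *velC* (−3.14).

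Genes for AtfA, AtfB and other bZIP factors. The study and RefSeq give the name *atfB* to different genes. The study's gene lists give the name to AN8643, and RefSeq gives it to AN6849. The gene AN8643 had 253, 307 and 362 RPKM in conidia, against 3.52, 3.58 and 2.72 RPKM in mycelia (log2 fold change 6.97, SE 0.20, adjusted p = 1.01e-09). For AN6849 the values were 99.5, 111.6 and 123 RPKM in conidia and 30.6, 38.2 and 31.9 RPKM in mycelia (2.15, SE 0.13), under the 8-fold limit. In untreated libraries labelled as lacking *atfB*, AN6849 kept reads throughout, and AN8643 lay below the control in all but the Δ*atfB* conidia. In untreated Δ*atfB* conidia AN8643 had 241, 216 and 314 RPKM and AN6849 had 128, 96.3 and 130 RPKM, so neither had lost its reads there. In Δ*atfB* mycelia AN8643 had 0.666, 0.860 and 0.787 RPKM, below the control, and AN6849 had 46.1, 52.7 and 48.2 RPKM, above it. In conidia of the double deletion strain AN8643 had 1.94, 2.67 and 2.13 RPKM and AN6849 had 104.03, 79.8 and 105.1 RPKM. In mycelia of that strain AN8643 had 0.523, 0.509 and 0.919 RPKM and AN6849 had 7.56, 6.92 and 5.64 RPKM, both below the control. By the study, deletion of *atfA* alone also lowered *atfB*. Why AN8643 kept its reads in Δ*atfB* conidia was not tested. The gene *atfA* had 437, 576 and 521 RPKM in conidia and 49.7, 39.4 and 40.3 RPKM in mycelia (log2 fold change 3.98, SE 0.16, adjusted p = 7.42e-09). None of these 3 genes overlapped between control conidia and mycelia, as was the case for 8249 of all 9518 genes tested. Of 14 bZIP genes, 3 were called higher (*atfA*, AN8643 and *zipB*) and none lower, and the median log2 fold change was 0.25. The higher share was 21.4%, beside 16.1% of all genes. Among 340 transcription factor genes tested, 48 were higher and 7 lower, shares of 14.1% and 2.06% beside 16.1% and 5.09% of all genes. The zinc-cluster gene AN8930 stood out in this list, with 181, 230 and 212 RPKM in conidia and 0.734, 0.603 and 0.458 RPKM in mycelia (log2 fold change 8.86).

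Hydrophobins. The 6 hydrophobin genes, which encode the small secreted proteins that make fungal surfaces water repellent, differed from each other in direction. Of the 5 tested, 3 were higher and 2 lower in conidia (60% and 40%, beside 16.1% and 5.09% of all genes). For *rodA*, the main protein of the conidial rodlet layer, 3389, 4681 and 5212 RPKM were found in conidia and 72.5, 195 and 64 RPKM in mycelia (log2 fold change 5.74, SE 0.45, adjusted p = 8.53e-07). The conidial wall hydrophobin gene *dewA* had 2330, 2400 and 4188 RPKM in conidia and 0.315, 1.19 and 0.455 RPKM in mycelia (log2 fold change 12.59, SE 0.46). For *dewB* the values were 250, 326 and 400 RPKM in conidia and 22, 74.9 and 24.2 RPKM in mycelia (3.43, SE 0.44). In all of these, mycelial replicate 2 was the highest of the mycelia, as it was for the sum of the conidiophore markers, whose part in the result was not tested.

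By contrast, *dewC* and *dewE* were mycelial transcripts in these cultures. The gene *dewE* had 0, 0 and 0.283 RPKM in conidia, 3 counts in all, and 1875, 2133 and 1900 RPKM in mycelia, 92598 counts. The ratio of the pooled RPKM was 5.96e-05 with a 95% exact counting interval of 1.23e-05 to 0.000174. Expression of *dewC* was 0.631, 0.556 and 0.593 RPKM in conidia and 268, 356 and 202 RPKM in mycelia (log2 fold change −8.44, SE 0.30, adjusted p = 3.3e-09). No read of *dewD* was counted in any of the 6 libraries. A count of 0 allows up to 3 reads per group.

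Pigment genes. Of 5 genes of pigment synthesis 3 were higher and 1 was lower in conidia (60% and 20%, beside 16.1% and 5.09% of all genes). The polyketide synthase gene *wA* of the conidial pigment had 382, 637 and 844 RPKM in conidia and 1.54, 1.29 and 1.43 RPKM in mycelia (log2 fold change 9.19, SE 0.33, adjusted p = 3.53e-09). The laccase gene *yA*, which turns the yellow pigment green, had 80.3, 106.003 and 114 RPKM in conidia and 8.44, 6.82 and 7.91 RPKM in mycelia (4.12, SE 0.16). The genes of the brown conidiophore pigment were split. While *ivoA* was higher in conidia, with 20.4, 27.2 and 31.2 RPKM against 0.741, 0.914 and 0.515 RPKM in mycelia, *ivoB* was lower, with 0.681, 0.601 and 1.09 RPKM against 103.9, 192 and 94 RPKM in mycelia (log2 fold change −6.89, SE 0.38, adjusted p = 6.87e-08). The third, *ivoC*, had a log2 fold change of 1.96 and was not called.

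**Figure D2:**
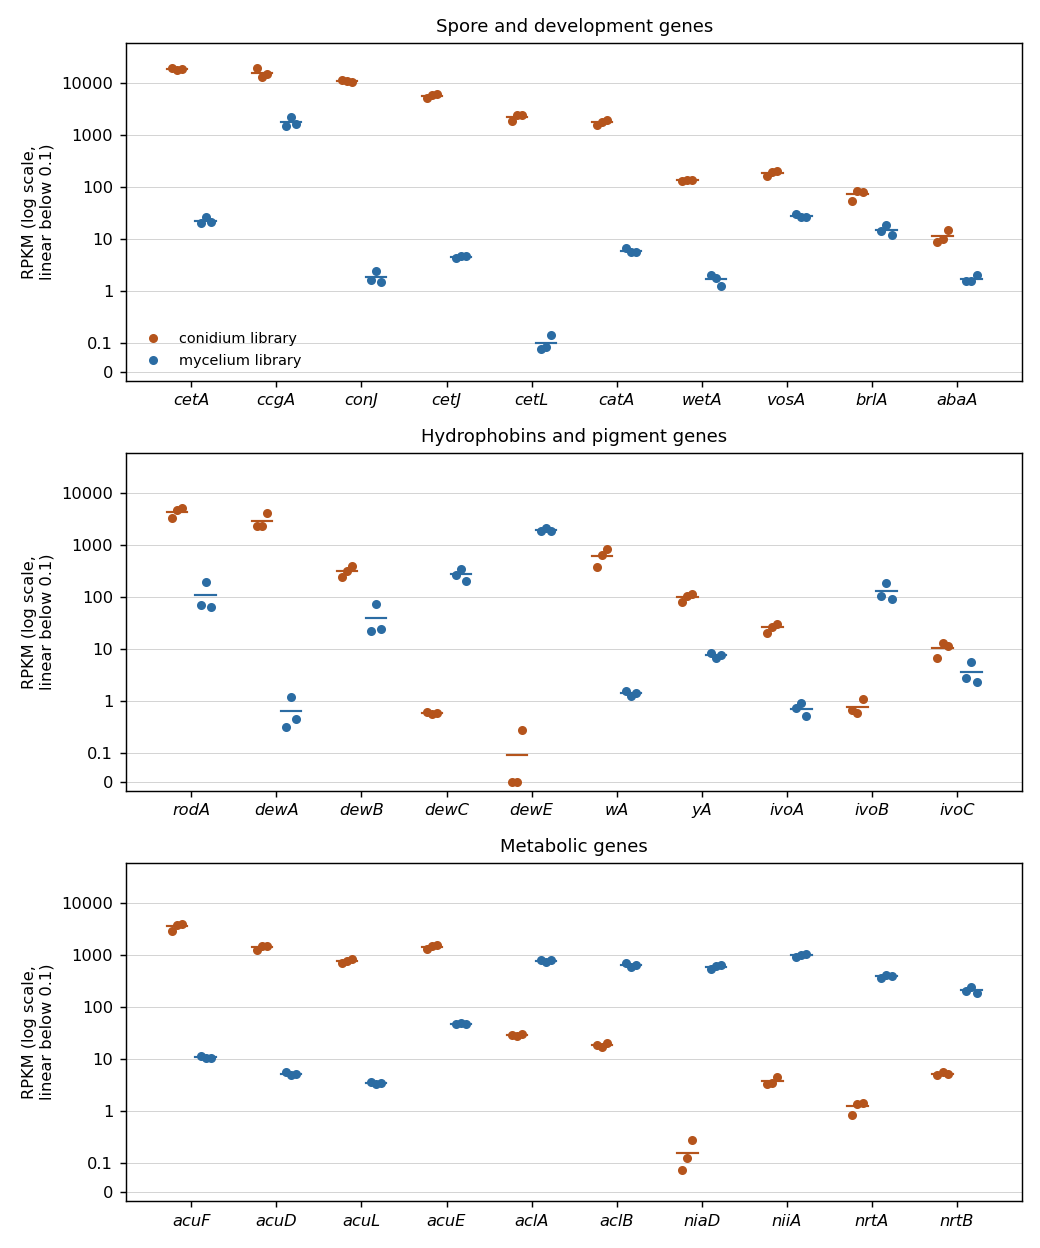
RPKM of 30 genes in each library on a log scale (linear below 0.1), conidia in orange on the left and mycelia in blue on the right of each gene, with a bar at the mean of 3 libraries. The conidial points of *conJ* sit at 10504 to 11250 RPKM and its mycelial points at 1.5 to 2.46, while *dewC*, *dewE*, *ivoB*, *aclA*, *aclB* and the nitrate genes show the opposite order.

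Light. Of 5 photoreceptor genes 1 was called higher (20%, beside 16.1% of all genes) and none lower. The opsin-like gene *nopA* had 2715, 2321 and 2673 RPKM in conidia and 21.8, 26 and 22.5 RPKM in mycelia (log2 fold change 7.20, SE 0.18, adjusted p = 3.65e-10). The phytochrome gene *fphA*, the white-collar homologs *lreA* and *lreB*, and the cryptochrome gene *cryA* had log2 fold changes of 1.44, 1.37, 2.25 and 2.07. Of 11 genes described as light-induced in developmentally competent mycelia, 10 were called higher (90.9%, beside 16.1% of all genes) and none lower (median 5.28). AN4299 had 9840, 8197 and 9464 RPKM in conidia and 434, 521 and 451 RPKM in mycelia (log2 fold change 4.72). AN8018 had the largest change of the list, 7.49, with 420, 560 and 532 RPKM in conidia and 4.44, 3.42 and 3.37 RPKM in mycelia. Illumination of the cultures is not given in the sources used here.

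Storage and stress protection. Among the trehalose, glycerol and heat shock genes, calls were made only towards higher levels in conidia, and 9 of 18 genes were not called. Of 6 trehalose genes 3 were higher (50%, beside 16.1% of all genes) and none lower (median 2.99). They were led by AN8639, a putative trehalose-phosphate synthase gene, with 775, 741 and 677 RPKM in conidia and 26.2, 27.9 and 23.1 RPKM in mycelia (log2 fold change 5.25). The trehalose-6-phosphate synthase gene *tpsA* had a log2 fold change of 3.25, which fell under the limit with library totals. The glycerol-3-phosphate dehydrogenase gene *gfdB* had 400, 454 and 353 RPKM in conidia and 4.44, 4.38 and 3.07 RPKM in mycelia (7.09, SE 0.21, adjusted p = 1.02e-09). Its paralog *gfdA* had a log2 fold change of −0.06. Of 9 heat shock genes 5 were higher (55.6%, beside 16.1% of all genes) and none lower (median 4.09). The small heat shock gene *hsp20* had 247, 219 and 260 RPKM in conidia and 0.213, 0 and 0 RPKM in mycelia (11.98, SE 0.39), and *hsp70* had 1353, 1319 and 1539 RPKM in conidia and 110, 102.4 and 95.7 RPKM in mycelia (4.19, SE 0.14).

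Antioxidative enzymes were divided. Of 37 genes tested, 7 were higher and 2 lower, shares of 18.9% and 5.41%, close to those of all genes. The catalases showed both directions. Besides *catA*, the putative catalase gene AN8553 had 2420, 3039 and 2975 RPKM in conidia and 2.91, 2.71 and 1.85 RPKM in mycelia (log2 fold change 10.56, SE 0.25, adjusted p = 3.17e-10). The peroxisomal catalase gene *catC* was lower in conidia (log2 fold change −3.69), and the mycelial catalase gene *catB* had −1.59 and was not called. The catalase-peroxidase gene *cpeA* was higher (5.57). The opposite extreme was AN2578, with a predicted peroxidase domain, at 0.105, 0.139 and 0.178 RPKM in conidia and 602, 591 and 762 RPKM in mycelia (−11.65, SE 0.25, adjusted p = 2.71e-10). None of the 19 genes of iron-sulfur cluster assembly reached the 8-fold limit by edgeR. At least 2-fold higher were 6 and lower 2, beside 34% and 26.9% of all genes tested.

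Signalling. Of 18 phosphorelay genes 4 were higher (22.2%, beside 16.1% of all genes) and none lower (median 1.42). They were *hk-8-3* (log2 fold change 6.31), *hk-8-5* (5.66), *hk2* (4.66) and *hk-8-2* (4.25), of which the study's gene lists describe *hk-8-2* as a histidine kinase and the others as putative phosphotransfer proteins. The gene *hk-8-3* had 137, 225 and 205 RPKM in conidia and 3.89, 2.40 and 3.23 RPKM in mycelia. None of the 8 genes of the MAP kinase pathways reached the 8-fold limit by edgeR. At least 2-fold changes at adjusted p below 0.05 by edgeR were found in 3 higher and 2 lower genes. Over all genes tested these shares were 34% and 26.9%, so the list is too small to set it apart. The stress kinase gene *hogA* (2.25) and its activator *pbsA* (2.67) were among the higher ones. The lower ones were the cell wall kinase gene *mpkA* (−2.23) and the developmental kinase gene *mpkB* (−2.57).

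Carbon metabolism. The genes for the glyoxylate bypass, gluconeogenesis and the use of acetate were higher in conidia as a whole. Of these, 8 of 8 were called, beside 16.1% of all genes, with a median log2 fold change of 4.62. This route turns acetyl-CoA from fatty acids into sugar. The phosphoenolpyruvate carboxykinase gene *acuF* had 2889, 3927 and 4109 RPKM in conidia and 11.5, 10.6 and 10.8 RPKM in mycelia (8.79, SE 0.20, adjusted p = 2.85e-10). Isocitrate lyase, encoded by *acuD*, had 1291, 1501 and 1549 RPKM in conidia and 5.78, 4.98 and 5.29 RPKM in mycelia (8.50, SE 0.17). The malate synthase gene *acuE* (5.34) and the mitochondrial carrier gene *acuL* (8.21) were higher too. The smallest change of the list was that of the acetyl-CoA synthetase gene *facA*, 3.01, at the edge of the 8-fold limit and open to the scaling shift given above.

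The enzymes that make cytosolic acetyl-CoA from citrate ran the other way. The ATP citrate lyase genes *aclA* and *aclB* were lower in conidia. Expression of *aclA* was 29.8, 28.5 and 30.3 RPKM in conidia and 827, 756 and 811 RPKM in mycelia (−4.33, SE 0.13, adjusted p = 1.27e-09). For *aclB* the values were 19.1, 17.5 and 20.3 RPKM in conidia and 701, 612 and 654 RPKM in mycelia (−4.69, SE 0.15). Among all 34 TCA cycle genes tested, 1 was higher and 3 lower, and the median of −0.10 was near that of all genes. These were 2.94% and 8.82% of the list, beside 16.1% and 5.09% of all genes. The third lower gene, AN3894, encodes a putative aconitase, while the known aconitase gene *acoA* had 1.73. The higher gene, the putative malate dehydrogenase AN9053, was scarce in conidia too (2.99, 3.33 and 3.02 RPKM, against 0.12, 0.0668 and 0 in mycelia).

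Glycolysis changed in single genes. Of 16 genes 2 were higher (12.5%, beside 16.1% of all genes) and none lower (median 0.39). The hexokinase gene *hxkB* had 206, 290 and 206 RPKM in conidia and 0.0551, 0.184 and 0.0996 RPKM in mycelia (11.41, SE 0.29, adjusted p = 5.11e-10). Its paralogs *hxkA* (−0.80) and *glkA* (0.85) were not called. The gene *pfkZ* of a putative 6-phosphofructo-2-kinase was higher (4.66). In the pentose-phosphate group 3 of 10 genes were higher (30%, beside 16.1% of all genes) and none lower. The phosphoketolase gene *phk* (6.28) and the putative transketolase gene AN9180 (5.03) were among them. The third, the transaldolase-like gene AN9443, had 116, 80.7 and 42 RPKM in conidia and no count in mycelia, at least 1908-fold higher in conidia when 3 counts over the mycelial group are taken as the floor.

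Of 24 respiratory genes tested, 3 were called higher (12.5%, beside 16.1% of all genes) and none lower, and the median was −0.36. They were the putative alternative oxidase gene AN2099 (3.57) and the mitochondrially encoded *oxiC* (4.13) and *ndhE* (3.91). For *oxiC* the conidia spread widely, 18.9, 6.78 and 1.29 RPKM against 0.771, 0.515 and 0.650 RPKM in mycelia. Without conidium replicate 1 the log2 fold changes were 2.98 for *oxiC* and 2.99 for *ndhE*, and neither was called. Alcohol metabolism had 2 higher genes of 5 (40%, beside 16.1% of all genes), the pyruvate decarboxylase gene *pdcA* (3.74) and the alcohol dehydrogenase gene *alcB* (3.37). The call of *alcB* was lost with library totals (2.95) and with limma at pseudocounts of 0.1 and 1 RPKM (2.93 and 2.68).

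Growth functions. Genes of nitrate assimilation had the largest decrease of all lists described. Of 6 genes 4 were lower (66.7%, beside 5.09% of all genes), and the median log2 fold change was −6.28. The nitrate reductase gene *niaD* had 0.0764, 0.126 and 0.280 RPKM in conidia and 539, 620 and 645 RPKM in mycelia (−11.31, SE 0.28, adjusted p = 4.32e-10). The nitrite reductase gene *niiA* had 3.43, 3.47 and 4.50 RPKM in conidia and 925, 1016 and 1062 RPKM in mycelia (−7.61, SE 0.18). The transporter genes *nrtA* (−7.86) and *nrtB* (−4.94) were lower too. The genes of their regulators, *nirA* (0.34) and *areA* (−0.67), were not called.

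Tubulin and septin genes were lower in conidia. Of 10 cytoskeleton and septin genes 5 were called lower (50%, beside 5.09% of all genes) and none higher (median −2.86). The β-tubulin gene *tubC* had 19.2, 21.7 and 19.2 RPKM in conidia and 358, 334 and 329 RPKM in mycelia (−3.66, SE 0.13, adjusted p = 2.51e-09). The other called members were *benA* (−3.63), *tubA* (−3.53), *aspD* (−3.53) and *aspC* (−3.27). The actin gene *actA* had −1.36. The 5 cell cycle genes had a median of −2.51 and no call at 8-fold, and the nearest to it was the cyclin gene *nimE*, with 10.6, 11.7 and 14.6 RPKM in conidia and 129, 108.2 and 122 RPKM in mycelia (−2.86). Histone genes lay between −1.71 and −0.06.

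Cell wall genes. Among 11 genes of chitin and glucan synthesis 1 was lower (9.09%, beside 5.09% of all genes) and none higher (median −1.55). It was the α-1,3-glucan synthase gene *agsB*, with 3.68, 4.15 and 5.88 RPKM in conidia and 73.3, 57.9 and 74.4 RPKM in mycelia (−3.48, SE 0.20, adjusted p = 7.12e-08). The chitinase genes went in opposite directions. The transcript of *chiB*, known from autolysing cultures, had 1312, 1058 and 739 RPKM in conidia and 39.9, 44.0 and 49.9 RPKM in mycelia (4.97, SE 0.24). In turn *chiA* had 0.516, 0.705 and 0.874 RPKM in conidia and 34.4, 34.9 and 30.9 RPKM in mycelia (−5.12, SE 0.18). Of 319 carbohydrate-active enzyme genes tested, 81 were higher (25.4%) and 23 lower (7.21%), beside 16.1% and 5.09% of all genes. The α-1,3-glucanase genes led those, with 1103, 641 and 368 RPKM of *agnC* in conidia and 0.0201, 0 and 0.0544 RPKM in mycelia (14.95, SE 0.69), and 3176, 1680 and 899 RPKM of AN7349 in conidia and 0.549, 0.867 and 0.391 RPKM in mycelia (12.09, SE 0.64). In both genes conidium replicate 1 was the highest and replicate 3 the lowest.

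**Figure D3:**
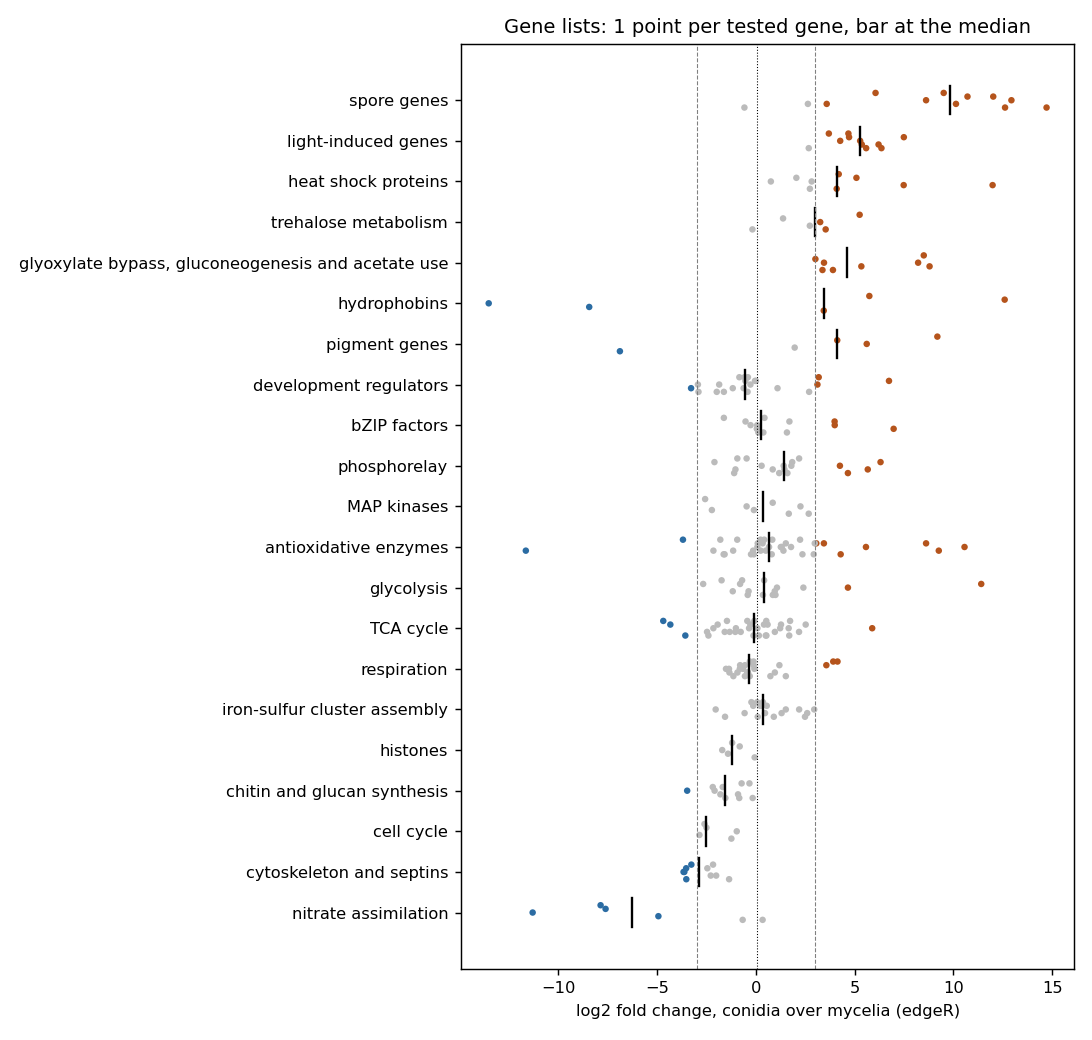
Log2 fold change (conidia over mycelia, edgeR) of each tested gene of 21 lists, orange where called higher, blue where called lower and grey where not called. Black bars mark list medians, the dotted line the median of all tested genes (0.05) and dashed lines the 8-fold limits at −3 and 3. The glyoxylate list lies wholly right of the upper limit, and the cell cycle and cytoskeleton lists lie left of 0.

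Secondary metabolism. Of 459 genes in predicted or known secondary metabolite clusters 315 were tested. Of these, 135 were higher in conidia (42.9%) and 32 lower (10.2%), beside 16.1% and 5.09% of all genes, and the median log2 fold change was 2.34. Cluster genes near 0 in mycelia were tested only if conidia reached 0.5 RPKM, so they could hardly be called lower. All 12 genes of the monodictyphenone (*mdp*) cluster were called higher, from 5.72 (*mdpE*, its regulator) to 15.06 (*mdpJ*). The polyketide synthase gene *mdpG* had 69.4, 43.4 and 51.3 RPKM in conidia and 0.411, 0.316 and 0.426 RPKM in mycelia (7.57). No count of *mdpJ* was found in mycelia, and it was at least 4180-fold higher in conidia at the floor of 3 counts over the group. Conidium replicate 1 had the highest value for 11 of the 12 genes. All tested genes of the 2 austinol (*aus*) clusters were higher too, 8 of 8 and 5 of 5, and the polyketide synthase gene *ausA* had a log2 fold change of 5.59.

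The second part of the *dba* and F9775 region had 7 of 8 genes higher, with the orsellinic acid synthase gene *orsA* at 10.11. In the first part of that region, 3 of 9 genes were tested. There *dbaD* was higher in conidia (5.59), *dbaG* was not called (2.46), and the regulator gene *dbaA* was lower. It had 0.10, 0.0332 and 0 RPKM in conidia and 16.9, 22.1 and 18.3 RPKM in mycelia. In the sterigmatocystin (*stc*) cluster 14 of 22 tested genes were higher, but at low levels. The gene *stcQ* averaged 10.4 RPKM in conidia and 0.0307 RPKM in mycelia. The regulator gene *aflR* had 0.982, 1.07 and 0.792 RPKM in conidia and 0.187, 0.208 and 0.242 RPKM in mycelia and was not called (2.53). Of the 5 genes of the terrequinone (*tdi*) cluster, 4 were tested and all 4 were higher, at mean levels under 5 RPKM in conidia. Their mycelial means were 0.0106 to 0.391 RPKM. At such levels genes enter the test mainly through the conidia, so a call of lower was hardly possible.

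Other clusters belonged to mycelia. Of the 5 emericellamide (*eas*) genes 4 were lower in conidia. The acyltransferase gene *easC* had 0, 0.0453 and 0.0387 RPKM in conidia, 2 counts in all, and 138, 133 and 124 RPKM in mycelia. The ratio of its pooled RPKM was 0.000244 (95% exact counting interval 2.95e-05 to 0.000880). The gene *easD* had 1.25, 0.538 and 1.23 RPKM in conidia and 346, 324 and 330 RPKM in mycelia (−7.97, SE 0.27). The peptide synthetase gene *easA* had −1.81 and was not called. All 3 genes of the microperfuranone (*mic*) cluster and the 3 siderophore genes *sidD*, *sidF* and *sidH* were lower as well. The siderophore genes had mean mycelial levels between 8.14 (*sidH*) and 15.5 RPKM (*sidF*).

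Genes in a row. The members of runs and clusters named here, as well as single genes given without library values above, were in part chosen after their values were seen. Part of the genes called higher were neighbours in the gene order of the ASM1142v1 assembly, which was used for order only. This order held 10032 of 10988 identifiers and skipped the others. Of the 1533 genes called higher, 454 lay in 107 runs of at least 3 adjacent called genes, and 132 in 16 runs of at least 6. Of the 484 genes called lower, 43 lay in 12 runs of at least 3, and none in a run of 6. Genes called higher were 16.1% of those tested and genes called lower 5.09%, so runs form more easily among the higher ones. The runs expected from these shares alone were not counted. The longest run had 16 genes and held *SpoC1-C1C* and *SpoC1-C1D* of the SpoC1 cluster, known for its conidium-specific RNAs. Its log2 fold changes were 3.22 to 13.03. The median of its mean levels was 206 RPKM in conidia and 0.581 RPKM in mycelia. Within it, AN10626 had 918, 1034 and 1175 RPKM in conidia and 0.149, 0.189 and 0.154 RPKM in mycelia (13.03, SE 0.22, adjusted p = 1.83e-10), and the weakest member was the methyltransferase-like gene *llmE* (3.22). The next run, of 14 genes, was made of the *mdp* cluster with AN10039 and AN9540 at its end.

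The gene AN8643, the candidate for *atfB* given above, lay in such a run. It was followed by AN8642, AN8641, *conF*, AN8639, *cetJ*, *catA* and AN8636, 8 genes with log2 fold changes of 5.18 to 10.71. The run thus held a bZIP factor gene, a light-induced gene, a putative trehalose-phosphate synthase gene, the conidial catalase gene and the conidial transcripts *conF* and *cetJ*. For *cetJ*, 5287, 5971 and 6068 RPKM were found in conidia and 4.29, 4.72 and 4.80 RPKM in mycelia (10.71, SE 0.18, adjusted p = 1.83e-10). The genes next to the run were not called, AN8644 with 0.05 on the AN8643 side and AN8635 with −2.79 on the other. Beyond AN8644, AN8645 and AN8646 were higher again (6.53 and 3.24), while the next gene, AN8647, was among the genes with the largest decrease in conidia (−10.58). On the mycelial side, *nrtA*, *niiA* and *niaD* formed a run with AN1009 (−4.29).

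**Figure D4:**
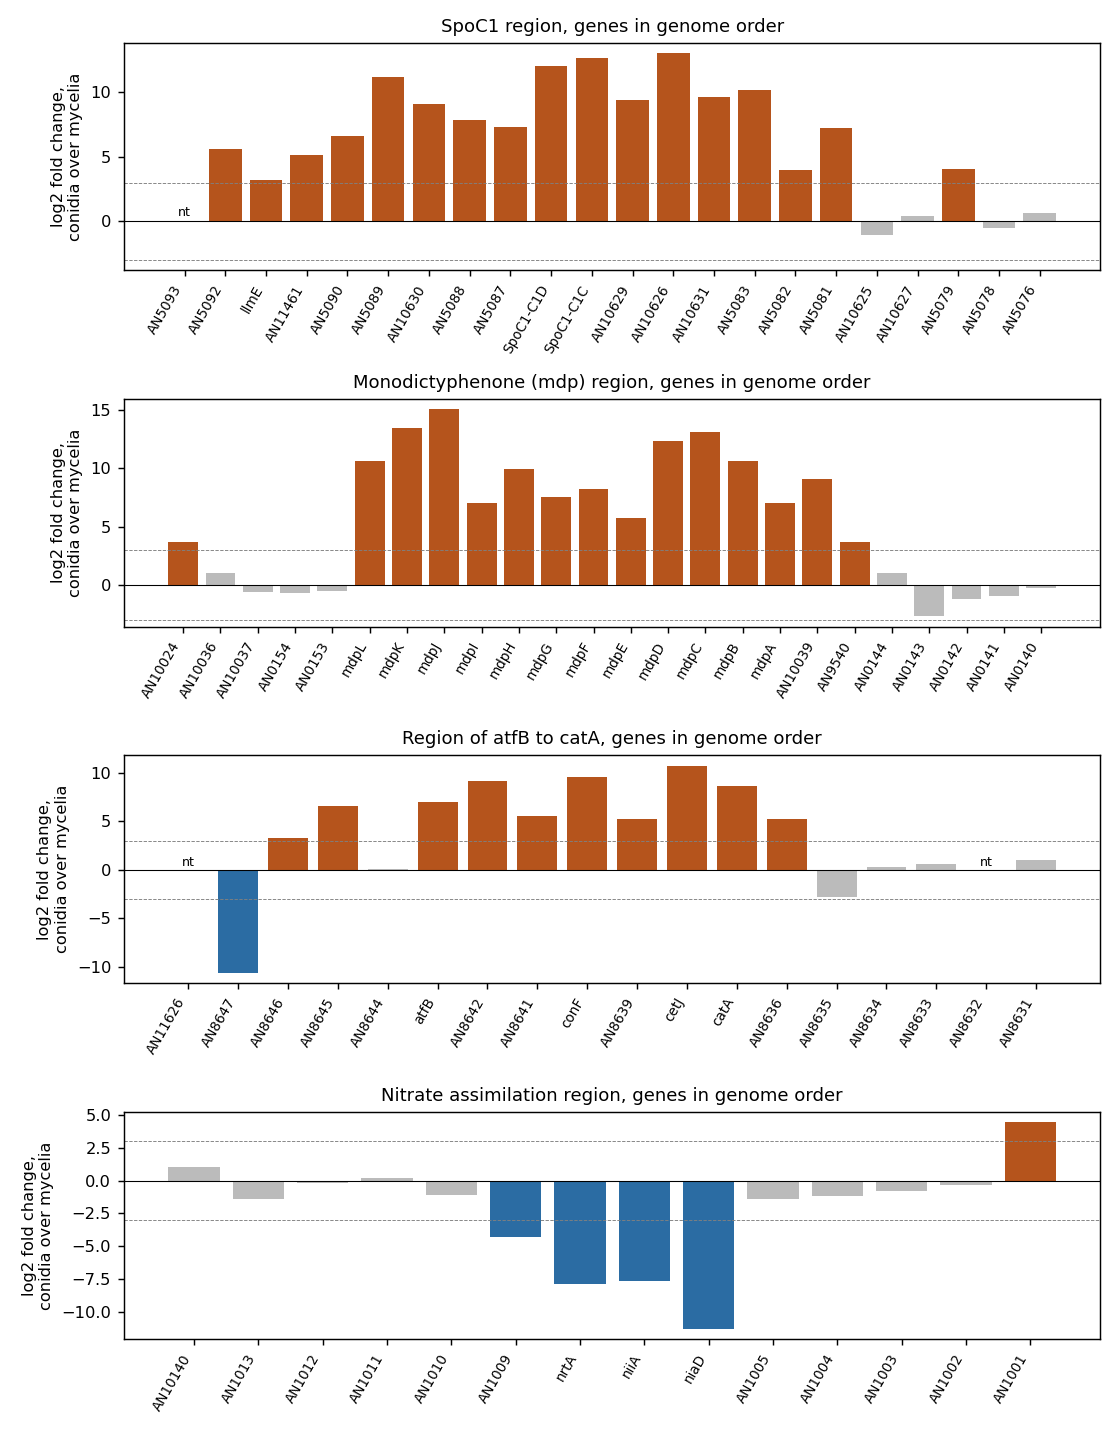
Log2 fold change (conidia over mycelia) of genes in genome order around 4 runs, with up to 5 neighbours on each side, orange for genes called higher, blue for called lower, grey for not called, and nt for genes not tested. Dashed lines mark the 8-fold limits. The gene after the SpoC1 run lies at −1.08, with AN5079 called higher (4.08) further out and the gene on the other side not tested. The *mdp* run is flanked by genes at −0.45 and 1.06, with AN10024 called higher (3.68) further out. The gene labelled atfB is AN8643.

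The largest changes were ranked among genes with a mean of at least 100 RPKM in the higher cell type. Genes without a name were 7 of the 10 with the largest increase, beside *mdpJ*, *agnC* and *cetL*. They were 6 of the 10 with the largest decrease, beside *dewE*, *easC*, *niaD* and *dewC*. Of all genes called higher 13.24% had a name, and of those called lower 14.26%, at any RPKM, beside 12.02% of all genes tested. Unnamed genes were thus not more frequent among these extremes than among called genes in general. AN11624 had 3026, 2363 and 2373 RPKM in conidia and no count in mycelia, at least 12743-fold higher at the floor of 3 counts over the group. The adjacent genes AN3966, AN3967 and AN3968 were likewise among the 10 with the largest increase. AN3966 and AN3967 had no count in mycelia and were at least 4161-fold and 7920-fold higher in conidia, while AN3968 had 711, 658 and 546 RPKM in conidia and a total of 1 count in mycelia. The unnamed AN3783, with 8519, 9512 and 5786 RPKM in conidia and 0.163, 0.181 and 0.294 RPKM in mycelia, was in the 10 most abundant conidial genes too (15.49, SE 0.35, adjusted p = 2.85e-10). On the mycelial side, AN8063 had 0.684, 0.588 and 0.811 RPKM in conidia and 392, 401 and 386 RPKM in mycelia (−8.71), and AN9001 had 1.77, 2.08 and 2.41 RPKM in conidia and 711, 749 and 693 RPKM in mycelia (−7.98).

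The same comparison was then run in libraries that the first one had not used. In the MSB-treated control strain 1203 genes were higher (12.8%) and 414 lower in conidia (4.4%). Of the 1533 genes higher in untreated conidia, 1007 were called again, 65.7% of the untreated and 83.7% of the MSB list. Of the 484 lower genes, 260 were called again, 53.7% of the untreated and 62.8% of the MSB list. In opposite directions, 2 genes were called, both higher in untreated conidia. In the Δ*atfA* strain 1290 genes were higher (13.6%) and 308 lower (3.25%), of which 782 and 170 were shared with the control. These are 51.0% and 35.1% of the control lists and 60.6% and 55.2% of the Δ*atfA* lists. Of the genes called in the control, 7 higher and 7 lower ones were called in the opposite direction in Δ*atfA*. Of the 1533 higher and 484 lower genes, 270 and 22 were not tested in Δ*atfA*, and 148 and 19 were not tested with MSB. Batches divide these libraries in the same way, so a second set of libraries does not separate cell type from batch.

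The deletion was visible in its target, since *atfA* had 27.2, 26.5 and 67.8 RPKM in Δ*atfA* conidia and 10.98, 11.9 and 11.1 RPKM in Δ*atfA* mycelia, below the values of the control strain given above. Whether the ratio of conidia to mycelia depends on the strain was tested as an interaction in edgeR. The ratio was at least 8-fold larger in Δ*atfA* for 431 genes (4.34%) and at least 8-fold smaller for 447 genes (4.5%) of 9929. With library totals these counts were 843 and 279. The spore genes *cetJ*, *cetL*, *conJ*, *dlpA* and *catA* were among those with a smaller ratio. In Δ*atfA*, *cetJ* had 1.02, 2.89 and 2.17 RPKM in conidia and 0.351, 0.257 and 0.156 RPKM in mycelia, and its interaction was −8.21 (log2, adjusted p = 1.03e-06 by edgeR). For *gfdB* the order turned, with 1.19, 1.45 and 1.87 RPKM in Δ*atfA* conidia and 4.04, 5.42 and 5.30 RPKM in Δ*atfA* mycelia (interaction −9.22, adjusted p = 7.08e-10).

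With MSB, the ratio of conidia to mycelia was at least 8-fold larger for 116 genes (1.19%) and smaller for 218 genes (2.23%) of 9763. Genes of the conidiophore and the spore surface were among those with a larger ratio. In MSB-treated libraries *brlA* had 317, 321 and 162 RPKM in conidia and 3.29, 2.76 and 1.35 RPKM in mycelia, an interaction of 4.35 (log2, adjusted p = 1.24e-05), and was called at 8-fold there. For *dewB* the MSB values were 2073, 1834 and 1434 RPKM in conidia and 4.91, 6.92 and 1.27 RPKM in mycelia (interaction 5.52, adjusted p = 5.09e-05). The mycelial gene *dewE* had 0.363, 0.746 and 0.478 RPKM in MSB-treated conidia and 203, 274 and 259 RPKM in MSB-treated mycelia, so that it was still lower in conidia but by less (interaction 5.03, adjusted p = 0.000162).

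**Figure D5:**
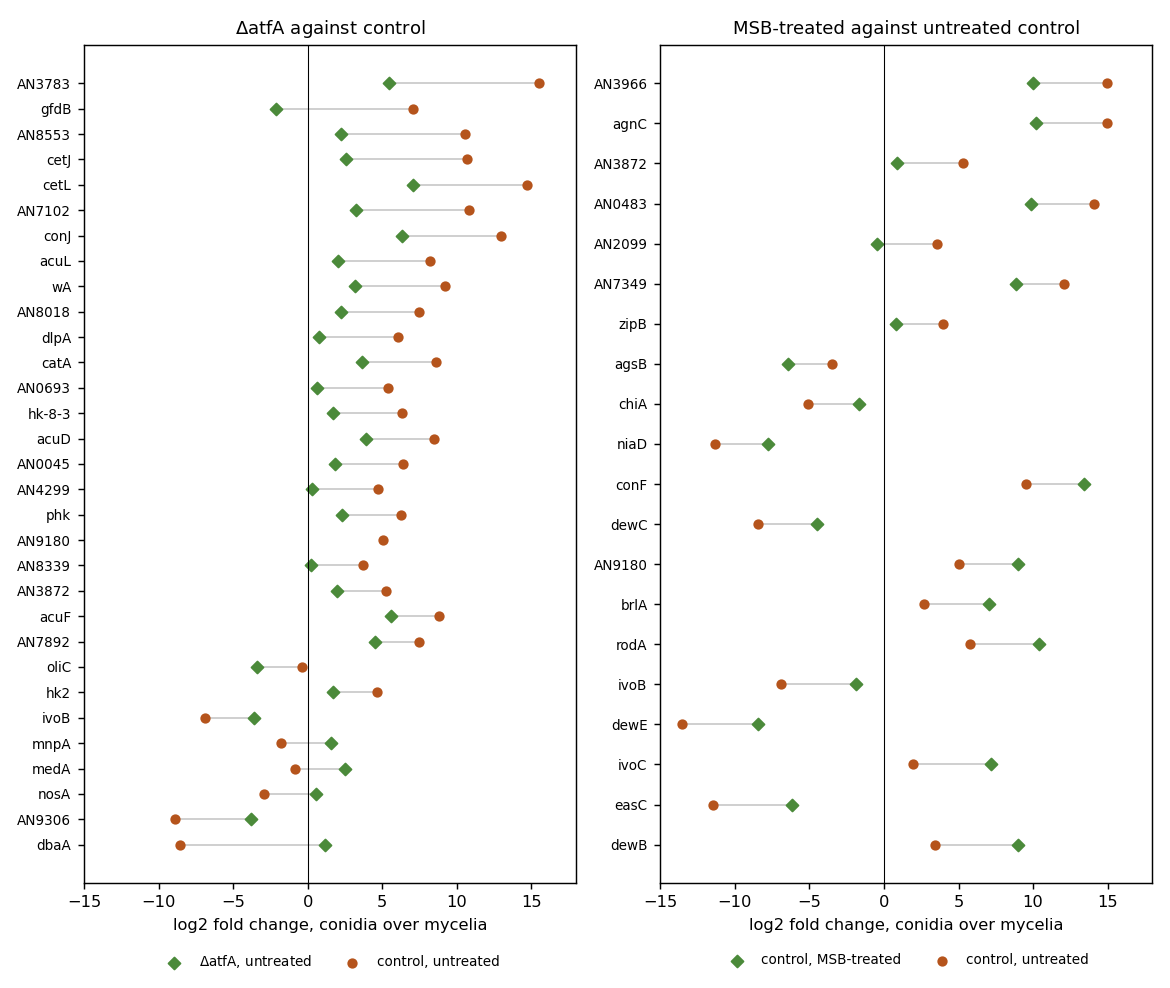
Log2 fold change of conidia over mycelia for the named genes whose ratio differed at least 8-fold, in Δ*atfA* (left panel, green diamonds) and in the MSB-treated control (right panel, green diamonds), beside the untreated control (orange circles). AN9180 has no diamond in the left panel because it was not tested in Δ*atfA* alone. Most diamonds of the left panel sit nearer to 0 than the circles, with *gfdB* at −2.11 against 7.09.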

How the data were processed

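RNA was extracted from conidia and mycelia and sequenced as single reads of 75 bases, and per the study's methods reads were aligned with HISAT2 2.1.0 to the FGSC A4 genome. The authors deposited read counts per gene, and RPKM values that they computed from these counts. The counting tool, the annotation and the use of strand are not given in the sources used here, so overlapping genes cannot be told apart. Recomputing the deposited RPKM from counts, gene lengths and library totals gave the same values. Groups came from the labels. Genes that reached 0.5 RPKM in 3 or more of 6 libraries had their counts fitted with edgeR 4.0.16 (RLE factors, quasi-likelihood F test, Benjamini-Hochberg adjustment). A call needed an adjusted p below 0.05 and at least an 8-fold change. The ratios of strains and treatments were compared by interaction terms. Each script's fit was first tested on simulated data. Alternatives used limma 3.58.1, DESeq2 1.42.0, other scalings and filters, and left out single libraries.

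Genes were named by a rule: all members of the lists of development, spore, surface, pigment and light genes, the 10 largest changes each way with a mean of at least 100 RPKM in the higher cell type, the 10 most abundant genes of each cell type, and up to 4 called genes of every other list. The members and lists were chosen with earlier results of these data known. Library totals of 9158006 to 26573017 counts set the precision. Intervals and floors cover counting error only. Replicate numbers did not pair the samples. Gene names came from the lists and from RefSeq, which held 10032 of 10988 identifiers. Sequences and promoters were not analysed here.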

Additional observations from a re-analysis of the deposited data

Results flagged for a closer look

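The named genes below had a ratio of conidia to mycelia that differed at least 8-fold from that of the untreated control strain, by the interaction term in edgeR at an adjusted p below 0.05. Values are differences of log2 fold changes.

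In Δ*atfA* against the control, the ratio was smaller for the spore and surface genes *cetJ* (−8.21), *cetL* (−7.82), *conJ* (−6.69), *wA* (−6.07), *dlpA* (−5.32) and *catA* (−5.00). It was also smaller for the genes of the light-induced list AN8018 (−5.33), AN0693 (−4.73), AN0045 (−4.60), AN4299 (−4.46), AN8339 (−3.53) and AN3872 (−3.33). Among metabolic and stress genes the same held for *gfdB* (−9.22), AN8553 (−8.37), *acuL* (−6.19), *acuD* (−4.63), *phk* (−4.03), AN9180 (−3.59), *acuF* (−3.25) and AN7892 (−3.03). Signalling and abundant genes added *hk-8-3* (−4.68), *hk2* (−3.03), AN3783 (−10.13), AN7102 (−7.60) and *oliC* (−3.03). The ratio was larger for *dbaA* (9.68), AN9306 (5.04), *nosA* (3.42), *medA* (3.28), *mnpA* (3.26) and *ivoB* (3.23).

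In the MSB-treated against the untreated control strain, the ratio was larger for *dewB* (5.52), *ivoC* (5.19), *dewE* (5.03), *ivoB* (4.99), *rodA* (4.63), *brlA* (4.35), *dewC* (3.89) and *conF* (3.88). It was larger too for *easC* (5.23), AN9180 (3.96), *niaD* (3.53) and *chiA* (3.41). Among these genes, *dewE*, *ivoB*, *dewC*, *easC*, *niaD* and *chiA* were lower in untreated conidia, so their larger ratio starts from a conidial deficit. Untreated conidia had 2 counts of *easC* and 20 of *niaD*, so these values rest on few counts. The ratio was smaller for AN3966 (−4.88), *agnC* (−4.76), AN3872 (−4.45), AN0483 (−4.20), AN2099 (−4.04), AN7349 (−3.26), *zipB* (−3.21) and *agsB* (−3.02). The value of AN3966 depends on the prior count of the fit, since untreated mycelia had no count of it. MSB-treated conidia had 19618, 19778 and 11530 RPKM of *rodA*, and MSB-treated mycelia 16.0, 27.4 and 3.79 RPKM.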

How the results depend on the processing

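The count of genes higher in conidia was 769 with limma and a pseudocount of 1 RPKM, and the other alternatives gave counts within 1.5 times of 1533 and 484. Leaving out single libraries gave 1501 to 1548 genes higher and 484 to 511 lower. For the Δ*atfA* interaction these ranges were 406 to 460 larger and 434 to 458 smaller, and for MSB up to 121 larger and 199 to 226 smaller. With library totals the Δ*atfA* interaction had 843 larger and 279 smaller ratios. The sign of *flbA*, near 0, turned with a 5 RPKM filter (0.17), with all 48 libraries (0.12), and over single omitted libraries between −0.078 and 0.086. That of *nsdD* turned with the 5 RPKM filter (0.13), all 48 libraries (0.070), a batch 2 term (0.040), and over single omitted libraries between −0.098 and 0.051. The cause was not tested. A replicate block gave 1522 genes higher and 484 lower, 429 and 453 for the Δ*atfA* interaction and 116 and 215 for MSB. It changed no call of a named gene. Deviations of same-numbered libraries correlated at −0.060, 0.049 and 0.00067, so the numbers did not pair the samples. Of the named genes called, DESeq2 and TMM factors lost none, library totals 4, and limma 6 or 11 with pseudocounts of 0.1 and 1. Genes with few counts, such as *phiA* and *dewD*, are limited by depth.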

Other observations

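Further secondary metabolite clusters, known by gene numbers or polyketide synthase names, also differed between the cell types. All 6 tested genes of the *pkb* cluster, which has 9 members, were at least 8-fold higher in conidia. So were 7 of 9 in the AN7084 cluster, 7 of 8 tested in the AN8105 cluster (10 members) and 6 of 8 in the *pki* cluster. Over all genes tested, 16.1% were higher and 5.09% lower. A gene near 0 in mycelia was tested only if conidia reached 0.5 RPKM, so it could hardly be called lower. Summed over its members, *pkb* had 1.05, 1.43 and 0.944 RPKM in mycelia. In the AN3273 cluster, with 22 members, 7 of 10 tested genes were lower in conidia and none was higher. The filter limits genes near 0 in conidia in the same way. None of the 8 genes of the AN7489 (*mirC*) cluster was called at 8-fold by edgeR. At least 2-fold lower were 4 and higher 1, beside 26.9% and 34% of all genes tested. A run of 9 adjacent genes that holds *xanB* had a median level of 34.9 RPKM in conidia and 0.0334 RPKM in mycelia, and a run of 9 that holds *agnC* had 81.1 RPKM in conidia and 0.232 RPKM in mycelia.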
